A study of Homo sapiens with 21 samples.

Results

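Translation initiation factor eIF2 delivers the initiator methionyl-tRNA to the ribosome, and phosphorylation of a serine in its alpha subunit turns eIF2 into an inhibitor of its own exchange factor, eIF2B. General protein synthesis then drops while a few messages, ATF4 among them, are translated better, a program known as the integrated stress response. The messages described here are the 7 genes that write, carry and erase this mark: the 4 eIF2 alpha kinases (EIF2AK1 to EIF2AK4), the substrate EIF2S1 (eIF2 alpha), and PPP1R15A and PPP1R15B, the regulatory subunits that direct protein phosphatase 1 to it. They were taken by gene symbol from 27142 genes in the deposited expression table, and all 7 passed the filter on low values. They were chosen by 2 sets of values in these same data, the level of EIF2AK1 with the B4GALNT1 shRNA and the level of PPP1R15A between the array libraries. Values of those 2 comparisons are therefore given as a description, with no test, and so are EIF2AK1 in other comparisons with the NT shRNA and PPP1R15A in the pooled arrays, which reuse the same libraries.

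The cells were HEK 293FT, a human embryonic kidney line carrying the SV40 large T antigen, at passages 8 to 12, harvested 48 h after Lipofectamine transfection of plasmids. There were 7 groups of 3 replicate libraries of stranded messenger RNA. RfxCasR, an RNA-guided nuclease that cuts RNA, was expressed with an array of guides against ANXA4 or a non-targeting (NT) array, and with a single guide RNA (gRNA) against B4GALNT1 or an NT gRNA. Short hairpin RNAs (shRNAs), which load Argonaute proteins, were directed against ANXA4, against B4GALNT1, or were NT. Every group was thus transfected, and there was no untransfected group. The series title gives the question as the specificity of RfxCasR and of matching shRNAs.

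Expression is given as FPKM, which scales reads to exon length and library size. Depth recovered from it was 34.7 to 39.5 M reads in the 6 array libraries and 21.4 to 30.7 M in the other 15. The 7 genes held 457 (EIF2AK3) to 9326 (EIF2S1) recovered reads per library. Among 5 markers of the line, group means ran from 4.01 to 9.20 FPKM for NES to 394 to 667 FPKM for VIM, and summed to 529 to 813 FPKM. The 4 markers of blood, endothelium and fibroblasts summed to 6.03 to 10.9 FPKM. Of these COL1A1 was at 4.67 to 9.95 FPKM and LUM at 0.614 to 1.53 FPKM, PECAM1 reached at most 0.129 FPKM in a library, and PTPRC was listed at 0 in 17 of 21 libraries. The array libraries went against their labels: the libraries labelled ANXA4 array had 7.22, 6.76 and 7.12 FPKM of ANXA4, against 3.21, 2.54 and 3.34 FPKM in those labelled NT array. Array values below keep the labels, and whether the labels of the 2 array groups are exchanged was not tested. Targeted knockdown was seen in the other groups, with B4GALNT1 at 2.21 ± 0.167 FPKM with its gRNA and 5.89 ± 0.907 FPKM with the NT gRNA, and at 2.78 ± 0.183 FPKM with its shRNA and 4.08 ± 0.179 FPKM with the NT shRNA (SD, n = 3 each). In bulk RNA, fewer cells with a message and less of it per cell cannot be told apart, and messenger RNA measures neither protein nor kinase activity.

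Upstream sequences are shown for both phosphatase subunits, because PPP1R15A and PPP1R15B differed between groups in unlike ways. They are the 250 bases before the annotated start, from RefSeq (GRCh38.p14, 5′ to 3′ on the gene's strand). PPP1R15A lies at chr19:48872171-48872420 on the plus strand, and PPP1R15B at chr1:204411818-204412067 on the minus strand. Capitals mark 2 motifs searched on both strands, the cyclic AMP response element TGACGTCA and the C/EBP-ATF composite element TGATGCAA, which ATF4 dimers are known to bind.
PPP1R15A: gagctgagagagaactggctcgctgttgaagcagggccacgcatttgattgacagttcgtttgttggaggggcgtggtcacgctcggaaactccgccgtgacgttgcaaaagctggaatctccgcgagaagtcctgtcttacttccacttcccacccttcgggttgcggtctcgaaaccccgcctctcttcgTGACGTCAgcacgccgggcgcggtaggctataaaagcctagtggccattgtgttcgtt
PPP1R15B: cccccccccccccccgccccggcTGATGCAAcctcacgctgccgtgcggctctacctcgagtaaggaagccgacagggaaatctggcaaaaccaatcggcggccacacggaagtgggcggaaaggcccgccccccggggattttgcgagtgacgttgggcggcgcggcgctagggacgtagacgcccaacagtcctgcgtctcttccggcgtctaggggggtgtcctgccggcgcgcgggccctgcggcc
TGACGTCA begins 58 bases before the PPP1R15A start and TGATGCAA 227 bases before the PPP1R15B start. Of 35116 promoters of this length, 1.65% hold TGACGTCA and 0.772% hold TGATGCAA. Entries were found for 6 of the 7 genes, EIF2AK1 being the exception, and 4 of the 6 hold neither motif. A match is a description of letters and no evidence of binding.

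EIF2AK1, the heme-regulated inhibitor HRI (NM_014413, hg19 chromosome 7, 6061878 to 6098860, minus strand), was the most abundant kinase message. It is the kinase that responds to low heme and to mitochondrial stress. With the B4GALNT1 shRNA it had 25.0, 23.1 and 24.2 FPKM, against 48.1, 47.2 and 49.1 FPKM with the NT shRNA. Those 3 libraries were the lowest of all 21, and the other 18 lay between 42.7 and 49.6 FPKM. The ratio of the means was 0.5, and the difference was -0.97 on the log2(FPKM + 1) scale (SE 0.0331); the authors' deposited table gives -0.955 log2. This is the value for which the gene was chosen, so it carries no test here.

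The other reagent against the same target did not move EIF2AK1 by a detectable amount. With the B4GALNT1 gRNA it had 43.5, 44.0 and 44.0 FPKM, against 42.8, 42.7 and 44.7 FPKM with the NT gRNA. The groups overlapped, and the difference of 0.02 log2 had a 95% interval of -0.05 to 0.08 (limma adjusted p = 1). AIMP2, a gene on the opposite strand that overlaps EIF2AK1, stood at 45.3 ± 1.82 FPKM with the B4GALNT1 shRNA and 45.8 ± 3.97 FPKM with the NT shRNA (SD, n = 3 each). ANKRD61, which overlaps EIF2AK1 on the opposite strand too, reached at most 0.466 FPKM in a library. Reads were counted on the sense strand. Whether overlapping genes bear on the EIF2AK1 values was not tested.

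Other differences in EIF2AK1 were smaller. The ANXA4 shRNA libraries had 44.4, 43.6 and 43.6 FPKM, all below the NT shRNA libraries (-0.13 log2, SE 0.0331). The NT gRNA libraries lay below the NT shRNA libraries too (-0.15 log2, SE 0.0331). Both share the NT shRNA libraries with the comparison for which EIF2AK1 was chosen, so they carry no test. EIF2AK1 in the 6 array libraries, at 46.6 to 49.6 FPKM, lay above the 6 single-guide libraries at 42.7 to 44.7 FPKM (0.15 log2, SE 0.0234, limma adjusted p = 1.91e-05). In the order of group means only the step above the B4GALNT1 shRNA and the step between 43.9 FPKM (ANXA4 shRNA) and 48.1 FPKM (NT shRNA) separated all libraries of the neighbouring groups.

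EIF2AK4, or GCN2 (NM_001013703, hg19 chromosome 15, 40226325 to 40327797, plus strand), senses uncharged tRNA during amino acid shortage. It had 11.2, 11.2 and 11.4 FPKM with the ANXA4 shRNA, against 16.7, 15.6 and 15.6 FPKM with the NT shRNA. The groups did not overlap, and EIF2AK4 fell by 0.47 log2 (SE 0.0455, limma adjusted p = 6.48e-08). It had 14.1, 14.1 and 13.5 FPKM with the B4GALNT1 shRNA, between those groups. The array libraries, at 10.5 to 11.8 FPKM, were also lower than the single-guide libraries at 13.7 to 15.2 FPKM (-0.32 log2, SE 0.0322, limma adjusted p = 5.21e-08). The NT shRNA libraries were the highest of all 21, above a nearest other library at 15.2 FPKM. The NT gRNA libraries were lower than them by 0.14 log2 (limma adjusted p = 0.0147), a call that was lost after median centring (adjusted p = 0.0747), after quantile normalization (adjusted p = 0.0789), without NT shRNA replicate 1 (adjusted p = 0.0798) and without NT gRNA replicate 1 (adjusted p = 0.0794; 0.00685 to 0.0798 over all alternatives).

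EIF2AK3, or PERK (NM_001313915, hg19 chromosome 2, 88856258 to 88924447, minus strand), is the kinase of the endoplasmic reticulum stress response and had the fewest reads. The RfxCasR libraries lay between 4.13 and 5.24 FPKM and the shRNA libraries between 5.16 and 6.09 FPKM, so that the ranges just overlapped. NT gRNA libraries had 4.28, 4.45 and 4.41 FPKM, against 5.91, 6.09 and 5.98 FPKM in NT shRNA libraries. EIF2AK3 was lower with the NT gRNA by 0.38 log2 (SE 0.0589, limma adjusted p = 3.47e-05). No other tested comparison called it; the ANXA4 shRNA libraries averaged 5.57 ± 0.154 FPKM and the NT shRNA libraries 5.99 ± 0.0917 FPKM (SD, n = 3 each, limma adjusted p = 0.214).

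EIF2AK2, or PKR (NM_001135652, hg19 chromosome 2, 37332284 to 37374965, minus strand), is the kinase activated by double-stranded RNA. Libraries of the ANXA4 shRNA had 9.95, 9.62 and 8.90 FPKM, against 7.84, 7.35 and 8.74 FPKM in those of the NT shRNA. The authors' deposited table gives EIF2AK2 a log2 fold change of 0.205 here, with the authors' own adjusted p = 0.0234. The groups did not overlap, but in the limma fit the difference of 0.23 log2 (SE 0.103) missed the threshold (limma adjusted p = 0.0729). It passed with only these groups in the model (adjusted p = 0.022), without the array libraries (adjusted p = 0.0127), after quantile normalization (adjusted p = 0.0417), with voom on recovered reads (adjusted p = 0.0358) and without NT shRNA replicate 3 (adjusted p = 0.0466; 0.0127 to 0.224 over all alternatives). EIF2AK2 spread widely within the array groups, at 7.32, 7.51 and 9.64 FPKM in the libraries labelled ANXA4 array and 9.80, 6.90 and 7.77 FPKM in those labelled NT array. No neighbouring pair in its order of group means separated.

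Summed over the 4 kinases, the level was 51.7 ± 2.11 FPKM with the B4GALNT1 shRNA and 78.1 ± 1.66 FPKM with the NT shRNA (SD, n = 3 each). The other 5 group means of this sum lay between 69.8 and 72.3 FPKM. EIF2AK1 made up 46.5% of the sum with the B4GALNT1 shRNA and 61.7% to 67.2% in the other 6 groups, and EIF2AK4 made up 26.8% and 15.6% to 20.6%. The shares of EIF2AK2 and EIF2AK3 were also highest with the B4GALNT1 shRNA, at 16.0% and 10.6%. Shares of 1 sum are bound together, so a lower EIF2AK1 raises the others. EIF2AK4 itself averaged 13.9 FPKM with the B4GALNT1 shRNA and 16.0 FPKM with the NT shRNA. These shares are a description.

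**Figure D1:**
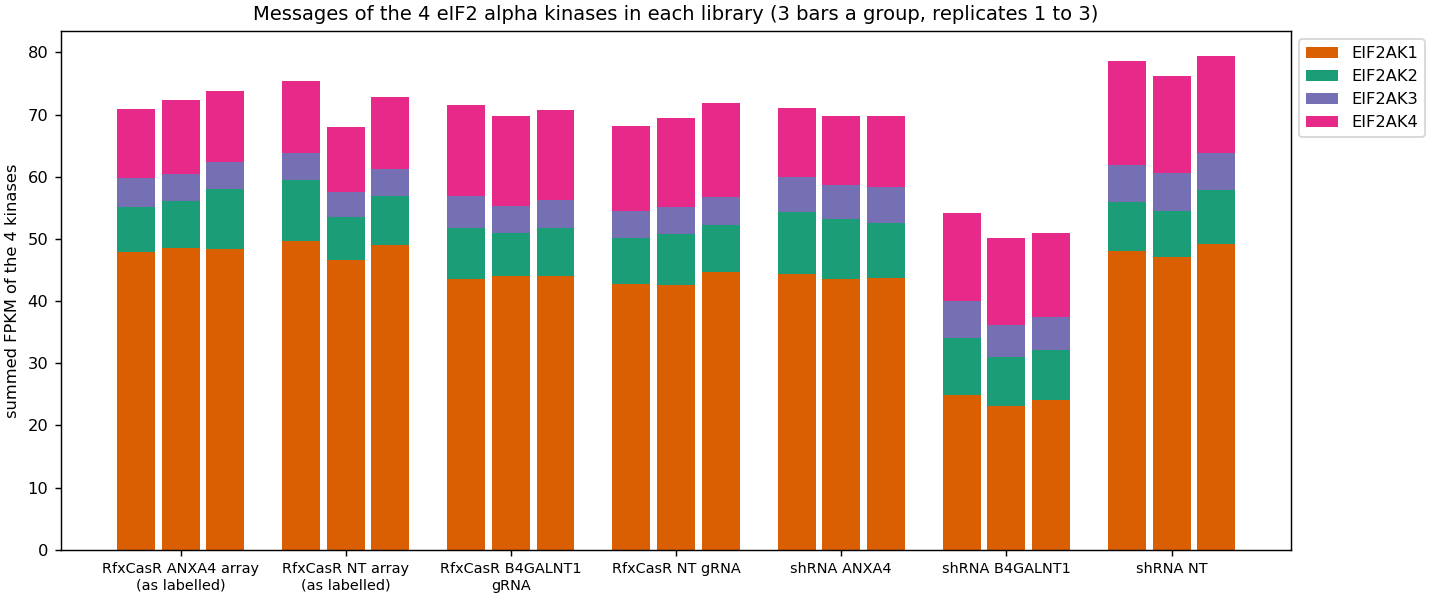
Summed FPKM of the 4 eIF2 alpha kinase messages in each of the 21 libraries, with 3 bars a group and each kinase in its own colour. The 3 B4GALNT1 shRNA bars reach 50.2 to 54.1 FPKM, below every other bar, and most of the gap lies in the EIF2AK1 segment.

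EIF2S1, the phosphorylated subunit (NM_004094, hg19 chromosome 14, 67827034 to 67853233, plus strand), varied least, with a ratio of 1.22 between its highest and lowest group means. The 6 array libraries had 52.2 to 57.6 FPKM, against 44.8 to 46.7 FPKM in the 6 single-guide libraries. EIF2S1 was higher in the arrays by 0.24 log2 (SE 0.0252, limma adjusted p = 7.61e-08). With the ANXA4 shRNA it had 52.4, 52.1 and 51.1 FPKM, against 49.8, 47.8 and 47.2 FPKM with the NT shRNA (0.10 log2, SE 0.0356, limma adjusted p = 0.0218). That call was lost after quantile normalization (adjusted p = 0.0524) and without NT shRNA replicate 2 (adjusted p = 0.0646), NT shRNA replicate 3 (adjusted p = 0.0888), ANXA4 shRNA replicate 1 (adjusted p = 0.0659) or ANXA4 shRNA replicate 2 (adjusted p = 0.0554; 0.0055 to 0.0888 over all alternatives). With the B4GALNT1 shRNA it had 53.3, 53.1 and 51.5 FPKM, a description only. The summed kinases relative to EIF2S1 were at a ratio of 0.983 ± 0.036 with the B4GALNT1 shRNA and 1.62 ± 0.0578 with the NT shRNA (SD, n = 3 each), and at group means of 1.30 to 1.55 elsewhere.

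PPP1R15A, or GADD34 (NM_014330, hg19 chromosome 19, 49375649 to 49379319, plus strand), is the stress-induced phosphatase subunit. The libraries labelled ANXA4 array had 35.2, 33.4 and 33.8 FPKM, against 25.0, 26.1 and 23.8 FPKM in those labelled NT array. The libraries labelled ANXA4 array were the highest and those labelled NT array the lowest of all 21, with the other 15 between 27.7 and 31.6 FPKM. The difference was 0.44 log2 (SE 0.0455), given without a test because it chose the gene. The authors' deposited table has the opposite sign, -0.44 log2, as it has for ANXA4 (-1.21 log2). The libraries labelled NT array thus had both the lower ANXA4 and the lower PPP1R15A.

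No tested difference in PPP1R15A was called with all libraries. With the ANXA4 shRNA, ANXA4 itself had 2.15, 2.56 and 2.50 FPKM against 5.82, 6.31 and 5.57 FPKM with the NT shRNA. PPP1R15A had 29.6, 31.4 and 30.2 FPKM with the ANXA4 shRNA, against 31.6, 30.2 and 30.3 FPKM with the NT shRNA. These groups overlapped, and the difference of -0.02 log2 had a 95% interval of -0.11 to 0.08 (limma adjusted p = 0.808). The NT gRNA libraries had 31.2, 28.0 and 28.1 FPKM, and their difference from the NT shRNA of -0.08 log2 (limma adjusted p = 0.182) passed without NT gRNA replicate 1 (-0.13 log2, adjusted p = 0.0327; 0.0327 to 0.606 over all alternatives). With the B4GALNT1 shRNA PPP1R15A had 27.8, 29.6 and 28.8 FPKM. With the arrays pooled against the single guides the opposed groups averaged to a difference of 0.01 log2, which was not tested because it holds the libraries that chose the gene.

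PPP1R15B, or CReP (NM_032833, hg19 chromosome 1, 204372492 to 204380945, minus strand), is the subunit known as constitutive. Its messages covered the widest range of the 7, with a ratio of 2.05 between the highest and lowest group means. It had 12.1, 11.5 and 12.2 FPKM with the ANXA4 shRNA, against 6.96, 5.95 and 6.71 FPKM with the NT shRNA. PPP1R15B rose by 0.78 log2 (SE 0.0603, limma adjusted p = 2.65e-09). Libraries of the B4GALNT1 shRNA had 13.9, 13.3 and 13.0 FPKM. Their difference from the NT shRNA was 0.93 on the log2(FPKM + 1) scale (SE 0.0603), given as a description. The authors' deposited table has a log2 fold change of 1.08, which is not on this scale, so the sizes cannot be compared directly. NT gRNA libraries, at 10.0, 9.89 and 10.4 FPKM, were also above the NT shRNA (0.56 log2, SE 0.0603, limma adjusted p = 4.94e-07). The 3 NT shRNA libraries were the lowest of all 21, under a nearest other library at 9.44 FPKM. These comparisons share the NT shRNA libraries, so their agreement in sign is not independent.

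Among RfxCasR groups PPP1R15B differed as well. The 6 array libraries had 11.4 to 13.9 FPKM, against 9.44 to 10.4 FPKM in the 6 single-guide libraries (0.33 log2, SE 0.0427, limma adjusted p = 1.24e-06). In each library the FPKM of PPP1R15B over that of PPP1R15A was 0.436 to 0.546 in the libraries labelled NT array (the authors' deposited table gives PPP1R15A the opposite sign there), 0.449 to 0.5 with the B4GALNT1 shRNA, and 0.197 to 0.221 with the NT shRNA. The other 4 groups had mean ratios of 0.347 to 0.393.

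**Figure D2:**
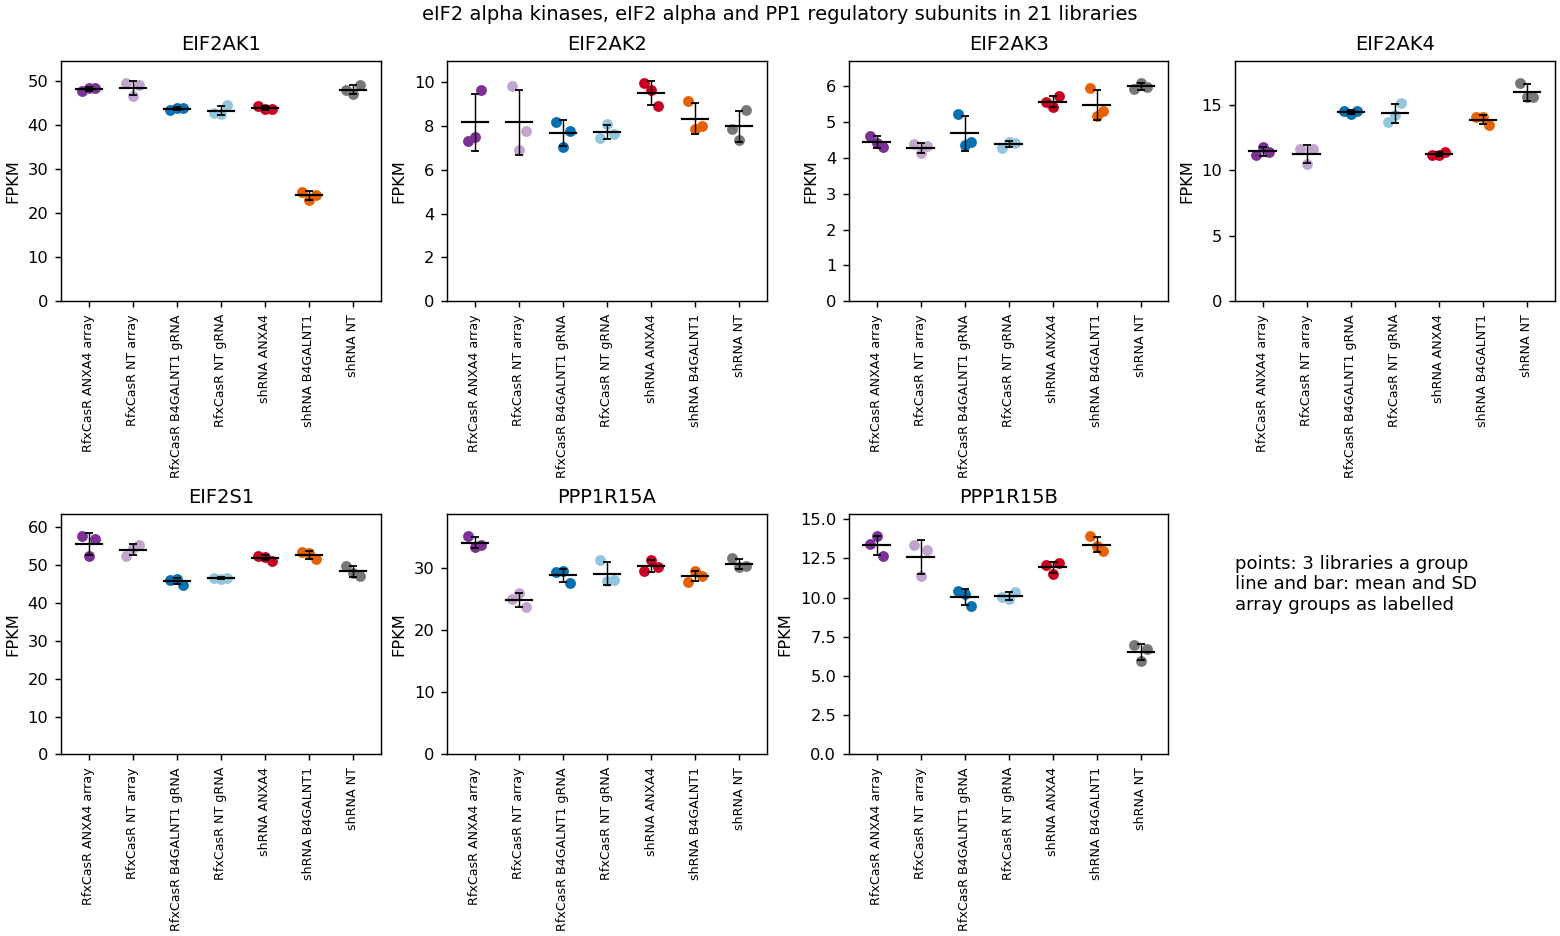
FPKM of each of the 7 genes in 21 libraries by group, with points for libraries, a line for the mean and a bar for the SD (n = 3). EIF2AK1 is lowest in the B4GALNT1 shRNA libraries, PPP1R15A lies highest and lowest in the array groups as labelled, and PPP1R15B is lowest in the NT shRNA libraries.

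The number of calls among the 6 genes tested in each of 3 comparisons lay near the share over all genes. With the ANXA4 shRNA 3 of 6 were called, where 51.8% of 13679 genes were: 2 rose (PPP1R15B, EIF2S1; 25.6% of all genes rose) and 1 fell (EIF2AK4; 26.3% fell). Libraries of these groups did not overlap for 5 of the 6, all but PPP1R15A, where 60.9% of all genes did not. With the NT gRNA against the NT shRNA 3 of 6 were called, where 48.9% of all genes were: 1 was higher (PPP1R15B; 22.4%) and 2 were lower (EIF2AK3, EIF2AK4; 26.5%). The libraries did not overlap for 4 of 6 there, where 60.7% of all genes did not. After median centring that comparison stood at 3698 genes higher and 2860 lower, in place of 3066 and 3621.

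In the arrays against the single guides 4 of 6 were called, where 67.8% of all genes were: 3 were higher (EIF2S1, PPP1R15B, EIF2AK1; 28.5%) and 1 was lower (EIF2AK4; 39.3%). The same 4 did not overlap, where 42.8% of all genes did not. Median centring changed 3895 genes higher and 5378 lower to 5015 and 4161. Depth moves with this last comparison, and the labels name no batch; depth and array cannot be told apart here.

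With the B4GALNT1 gRNA limma called 0 of the 7, where 0.00731% of all genes (the targeted B4GALNT1 alone) were called, and voom on recovered reads called 0. None of the 7 had an unadjusted p under 0.05 (0 genes), and the differences ran from -0.02 (EIF2S1) to 0.08 log2 (EIF2AK3). The 95% intervals reached from -0.22 to 0.21 log2 for EIF2AK2, the least precise, so changes inside these limits could not be told from 0. The libraries overlapped for all 7, where 11.8% of all genes did not overlap.

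**Figure D3:**
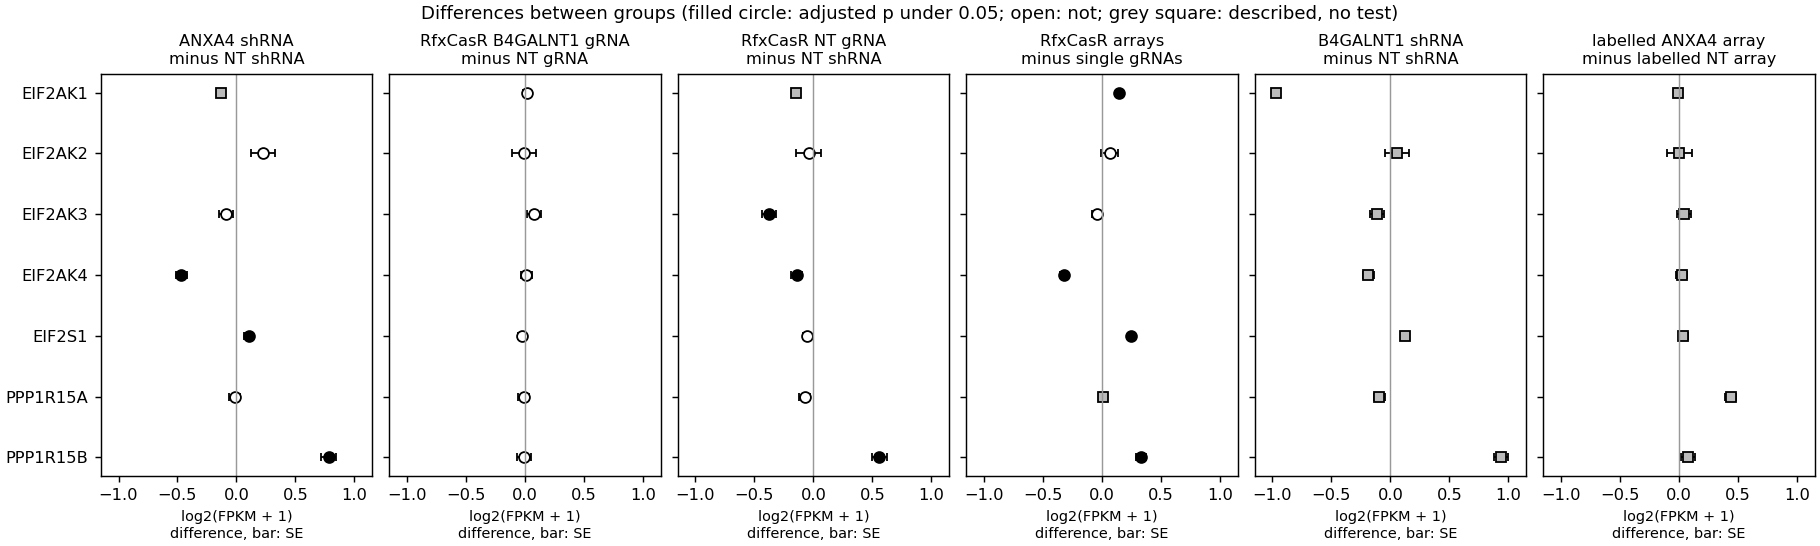
Difference in log2(FPKM + 1) for the 7 genes in 6 comparisons, with the SE as a bar; filled circles passed an adjusted p of 0.05, open circles did not, and grey squares are described without a test. The B4GALNT1 gRNA column lies within 0.08 log2 of 0 for every gene, while EIF2AK1 is at -0.97 in the B4GALNT1 shRNA column.

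Other genes of the pathway were read in 4 lists of 36 genes, 35 of which passed the filter. NUPR1 did not. The lists were chosen with earlier results of these data known, so their counts and p-values are not independent of these data. The first list held 8 genes: other subunits of eIF2, those of its exchange factor, and EIF5, the GTPase-activating factor of eIF2. Of these 8, 5 (EIF5 among them) rose and 2 fell with the ANXA4 shRNA, where 25.6% and 26.3% of all genes did. Their median was 0.30 log2, against -0.01 over all genes. EIF2B2 and EIF2B1, regulatory subunits of eIF2B, had 59.9 ± 2.13 and 46.3 ± 0.526 FPKM with the ANXA4 shRNA, against 22.9 ± 1.16 and 23.1 ± 1.08 FPKM with the NT shRNA (SD, n = 3 each; 1.35 and 0.97 log2, limma adjusted p = 1.05e-12 and 5.29e-12). EIF2S2 and EIF2S3, the beta and gamma subunits of eIF2, fell by 0.65 and 0.37 log2 (limma adjusted p = 1.6e-09 and 5.91e-08). With the NT gRNA against the NT shRNA 3 of the 8 were higher and 2 lower, where 22.4% and 26.5% of all genes were, at a median of -0.01 log2; it was 0.04 log2 after median centring and 0.02 after quantile normalization. EIF2B2 and EIF2B1 were called higher in that comparison as well (1.09 and 0.85 log2, limma adjusted p = 6.17e-11 and 1.11e-10). Both genes were lowest in the NT shRNA libraries, which the 2 comparisons share. EIF5 was lower with the NT gRNA (-0.42 log2, limma adjusted p = 2.69e-07). In the arrays against the single guides 5 were higher and 1 was lower, where 28.5% and 39.3% of all genes were, with EIF2B1, EIF2S2 and EIF2B2 each called higher by 0.23 to 0.26 log2.

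Of 9 regulators of the kinases, 3 rose and 2 fell with the ANXA4 shRNA, near the 25.6% and 26.3% of all genes. IMPACT, an inhibitor of EIF2AK4 activation, fell to 6.72 ± 0.268 FPKM with the ANXA4 shRNA, against 11.3 ± 0.424 FPKM with the NT shRNA (-0.67 log2, limma adjusted p = 1.21e-09). HSPA5, the chaperone that holds EIF2AK3 inactive, rose by 0.39 log2 (limma adjusted p = 1.85e-08), as did the adaptor NCK1 (limma adjusted p = 9.08e-05), and GCN1, the ribosome-bound activator of EIF2AK4, fell by 0.12 log2 (limma adjusted p = 0.00257). With the NT gRNA against the NT shRNA 1 was higher (NCK1, 0.39 log2, limma adjusted p = 0.000125) and 1 lower (DNAJC3, -0.26 log2, limma adjusted p = 0.00401), where 22.4% and 26.5% of all genes were. NCK1 was lowest with the NT shRNA, at a mean of 4.44 FPKM, against group means of 5.71 to 6.39 FPKM elsewhere. HSPA5 was at 173 ± 2.33 FPKM with the B4GALNT1 shRNA and 126 ± 4.01 FPKM with the NT shRNA (SD, n = 3 each), a description only. GCN1 was at 27.2 ± 0.601 FPKM in the arrays and 44.1 ± 0.643 FPKM with single guides (SD, n = 6 each; -0.68 log2, limma adjusted p = 1.29e-14), where 4 of the 9 were higher and 3 lower and 28.5% and 39.3% of all genes were. OMA1, the mitochondrial protease upstream of EIF2AK1, was higher by 0.47 log2 (limma adjusted p = 9.9e-06). PRKRA, an activator of EIF2AK2, was higher by 0.23 log2 (limma adjusted p = 0.000177).

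Of the 3 catalytic subunits of protein phosphatase 1, PPP1CA and PPP1CC fell with the ANXA4 shRNA, by 0.14 log2 each (limma adjusted p = 0.00277 and 0.0051), where 26.3% of all genes fell, and none rose. PPP1CB was lower with the NT gRNA than with the NT shRNA (-0.44 log2, limma adjusted p = 1.74e-07), and PPP1CC was higher in the arrays than with single guides (0.23 log2, limma adjusted p = 5.6e-07).

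Downstream of eIF2 phosphorylation, 10 of 15 genes fell and 2 rose with the ANXA4 shRNA, where 26.3% of all genes fell and 25.6% rose, at a median of -0.40 log2 against -0.01 over all genes. As this list was chosen with earlier results of these data known, the excess is a description. ATF4, the central transcription factor, had 127 ± 5.44 FPKM with the ANXA4 shRNA and 227 ± 5.32 FPKM with the NT shRNA (SD, n = 3 each; -0.84 log2, limma adjusted p = 1.33e-10). CHAC1, a glutathione-degrading enzyme, fell by 1.11 log2, DDIT4, an inhibitor of mTORC1, by 0.86 and TRIB3, a pseudokinase, by 0.56 (limma adjusted p = 1.97e-06, 3.79e-08 and 6.34e-07). DDIT3, the transcription factor CHOP, had 16.8 ± 1.47 FPKM against 16.8 ± 1.62 FPKM and was not called (limma adjusted p = 0.983). PPP1R15A, a known target in this branch, was not called either, as given above.

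In the other tested comparisons the downstream genes went both ways. With the NT gRNA against the NT shRNA 5 were higher and 5 lower, where 22.4% and 26.5% of all genes were; ATF4 was higher by 0.29 log2 and ATF5 by 0.46, and VLDLR and CEBPG were lower by 0.51 and 0.32 (limma adjusted p = 0.000149, 1.28e-05, 4.53e-06 and 6.64e-06). In the arrays against the single guides 6 were higher and 4 lower, where 28.5% and 39.3% of all genes were. DDIT4 had 57.5 ± 7.55 FPKM in the arrays and 243 ± 15.5 FPKM with single guides (SD, n = 6 each; -2.07 log2, limma adjusted p = 1.64e-15), CEBPB and VLDLR were lower by 0.46 and 0.42 log2, and CHAC1 was higher by 1.01 log2 (limma adjusted p = 1.04e-07, 2.39e-07 and 3.89e-08). ATF4 was higher by 0.26 log2 and DDIT3 lower by 0.26 (limma adjusted p = 4.96e-06 and 0.00563). With the B4GALNT1 gRNA limma called 0 of the 35 genes of the 4 lists, with 0 at an unadjusted p under 0.05 and 0 by voom.

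For the comparisons that chose the 7 genes, these counts are a description. Libraries did not overlap for 5 of the 7 genes with the B4GALNT1 shRNA against the NT shRNA, where 55.5% of all genes did not and 44.4% were called. Between the array groups as labelled PPP1R15A alone did not overlap, where 10.3% of all genes did not. With the B4GALNT1 shRNA 5 of 35 pathway genes were called higher and 12 lower, where 18.4% and 26% of all genes were (3162 higher and 2775 lower after median centring, in place of 2523 and 3554). Of the 15 downstream genes 0 were called higher and 7 lower with this shRNA (0 and 6 after median centring). Their median was -0.12 log2, against -0.04 over all genes. Both targeting shRNAs are thus set against the same NT shRNA libraries, and in both the downstream calls were mostly lower. ATF4 was at 207 ± 8.28 FPKM with the B4GALNT1 shRNA and 227 ± 5.32 FPKM with the NT shRNA (SD, n = 3 each). In the array groups as labelled limma called 0 of 35, where 0.285% of all genes were called. Of the 35, 6 had an unadjusted p under 0.05, and voom called 1, ATF3 (0.22 log2). ATF3 is a stress-induced transcription factor named here after its value was seen. The shares of all genes at an unadjusted p under 0.05 and by voom are not given here. The 0.285% is therefore no yardstick for those counts.

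**Figure D4:**
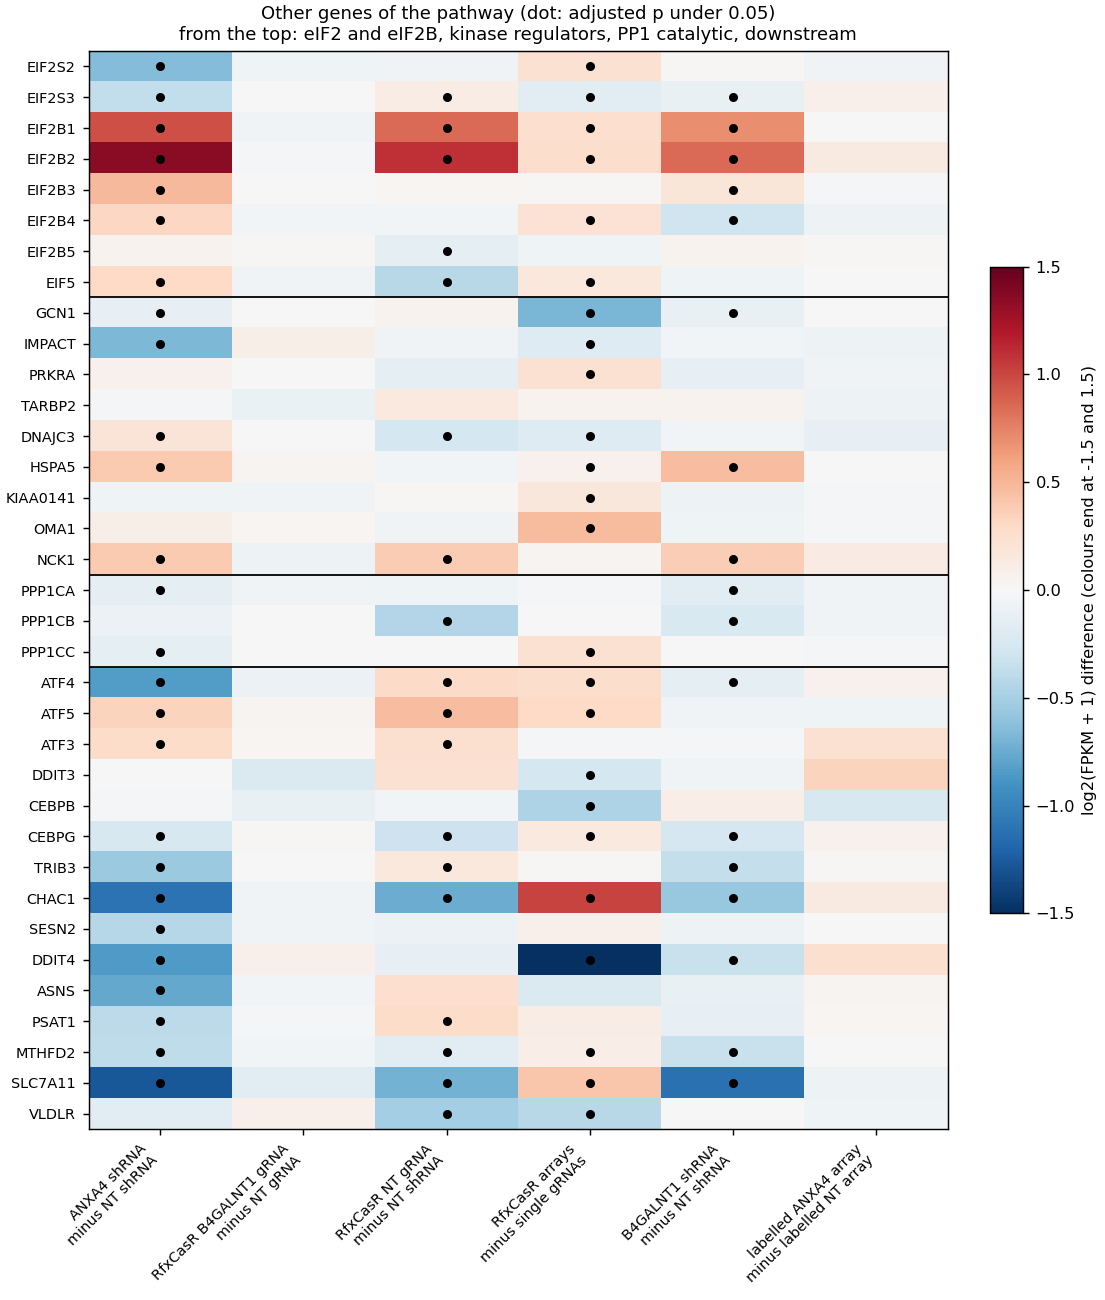
Difference in log2(FPKM + 1) for 35 other genes of the pathway (rows, by list) in 6 comparisons (columns), with a dot where the adjusted p was under 0.05. The ANXA4 shRNA column holds 10 lower and 2 higher downstream genes of 15, where 26.3% of all genes were called lower and 25.6% higher. The B4GALNT1 shRNA column holds 7 lower and 0 higher, where 26% of all genes were called lower and 18.4% higher. EIF2B1 and EIF2B2 are higher in each column set against the NT shRNA, and the B4GALNT1 gRNA column has no dot.

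The genes whose patterns over the 21 libraries lay nearest to EIF2AK1, by the root mean square difference of log2(FPKM + 1) profiles centred on their own means, were ARPC1A (0.0903), FKBP4 (0.094), SNW1 (0.0955), NCBP2 (0.101) and PI4K2A (0.104). The spread of EIF2AK1 about its own mean was 0.325 on this scale. All 5 were lowest with the B4GALNT1 shRNA: ARPC1A, a subunit of the actin-nucleating Arp2/3 complex, was at 41.2 ± 0.863 FPKM there and at 83.5 ± 3.00 FPKM with the NT shRNA, and PI4K2A, a phosphatidylinositol kinase, was at 8.08 ± 0.519 and 16.0 ± 0.668 FPKM (SD, n = 3 each). Nearest to PPP1R15A were CCNB1IP1 (0.0757), ANXA11 (0.0799), DDX19B (0.106), DRG2 (0.107) and MTA3 (0.107), where the spread of PPP1R15A itself was 0.129, so that the last of them are hardly nearer than a flat profile. ANXA11, an annexin like ANXA4, had 49.7 ± 0.753 FPKM in the libraries labelled ANXA4 array and 35.7 ± 1.29 FPKM in those labelled NT array (SD, n = 3 each), where the authors' deposited table has the opposite sign (-0.47 log2). These genes were picked for likeness, and no test applies to them.

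**Figure D5:**
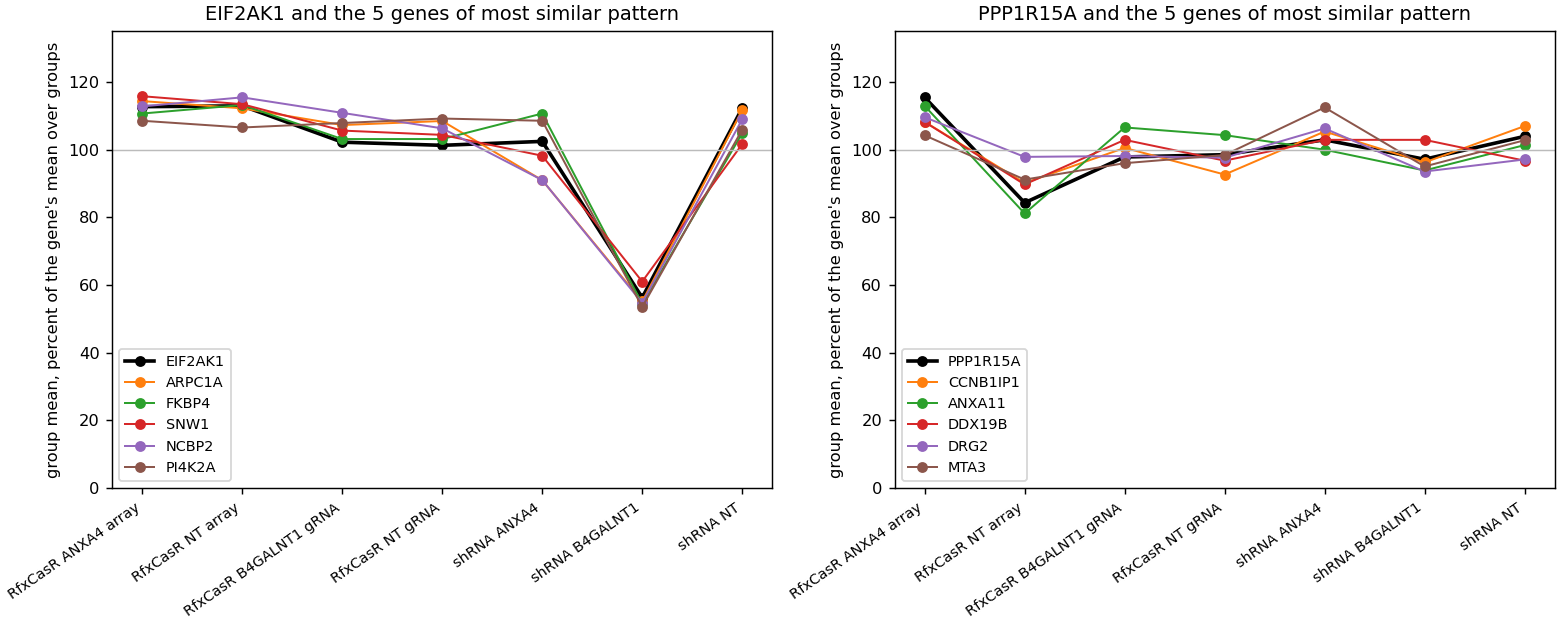
Group means as a percent of each gene's mean over the 7 groups, for EIF2AK1 (left, black) and PPP1R15A (right, black) with the 5 genes of most similar pattern. The EIF2AK1 set shares its low point at the B4GALNT1 shRNA, and ANXA11 follows PPP1R15A down in the libraries labelled NT array.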

How the data were processed

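The deposited FPKM values were made with HOMER, which per the file headers used hg19 exons, reads of the same strand and 1 transcript for each gene. Aside from HOMER, the submitters' processing notes list STAR, FastQC, R 3.3.2 and DESeq2 1.14.1. For 4 comparisons the authors deposited fold changes on a log2 scale with adjusted p-values, beside a column of normalized signal that was not used.

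The 7 genes and the pathway lists were chosen with earlier results of these data known. A gene was tested if 3 or more of the 21 libraries reached 1 FPKM (13679 genes). log2(FPKM + 1) values, which understate changes of low genes, were fitted with 7 group means in limma 3.58.1 (R 4.3.3, intensity trend), and p-values were Benjamini-Hochberg adjusted over all genes in each comparison; called means under 0.05. The fit was tested on simulated data. The labels do not say what was separate between replicates, so p-values measure only the spread between these libraries, which may be technical. Intervals are 95% intervals of the fit. Named pathway genes were up to 4 called genes with the smallest p per list and comparison, with ATF4 and DDIT3. Reads were recovered as FPKM times exon length times depth, whole within 0.1 for 99.9869% or more of the low values checked in each library. No library duplicated another of its group: chi-square per degree of freedom between replicates was 5.77 to 12.4 in the array groups, which were also deeper, and 2.24 to 4.025 in the others. The fit nevertheless shares 1 estimate of the spread per gene over all 7 groups.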

Additional observations from a re-analysis of the deposited data

How the results depend on the processing

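Over 25 tested values of the 7 genes (4 comparisons) and 426 alternative settings of them, 395 kept their direction and side of the threshold, 9 lost the call, 7 gained it and 15 changed sign, all in differences that were not called either way; the genes with a changed call are given with their p-values in the report, except EIF2S1 (-0.09 log2, adjusted p = 0.0362 after quantile normalization; 0.0362 to 0.877 over all alternatives), newly called in the NT gRNA against the NT shRNA. Sign changes by setting were EIF2AK2 with the B4GALNT1 gRNA (0.0012 log2 with voom), EIF2AK2 in the NT gRNA against the NT shRNA (0.003 after median centring, 0.0012 after quantile normalization) and EIF2AK3 in the arrays (0.0284 after median centring, 0.0776 after quantile normalization). Leaving out 1 library at a time moved PPP1R15A between -0.0385 and 0.0059 with the ANXA4 shRNA and EIF2AK2 between -0.0919 and 0.0192 in the NT gRNA against the NT shRNA. With the B4GALNT1 gRNA the ranges were -0.0512 to 0.0442 for EIF2AK2, -0.0198 to 0.0467 for EIF2AK4, -0.0378 to 0.0389 for PPP1R15A and -0.033 to 0.03 for PPP1R15B. The number called ranged from 2 to 4 with the ANXA4 shRNA and from 2 to 3 for the NT gRNA against the NT shRNA, both 3 of 6 as reported, and was 4 for the arrays and 0 for the B4GALNT1 gRNA in every setting. A model without the 6 array libraries, chosen after seeing the data, called 4 with the ANXA4 shRNA, 3 for the NT gRNA against the NT shRNA and 0 with the B4GALNT1 gRNA. Shares of all genes called under the alternative settings are not given here, so a change in count is no result about the 7 genes. The EIF2AK1 difference with the B4GALNT1 shRNA was -0.92 log2 after median centring, more than 1 SD from -0.97. Median centring shifts all genes of a library alike, and it moved the median difference over all genes there from -0.0382 to 0.0089 log2. With a mean of at least 5 FPKM as the filter EIF2AK3 was not tested. The replicate numbers were not taken to pair the libraries: 1 of 63 correlations of same-numbered deviations was over 0.1. However, 12 of 21 libraries correlated best with their own number out of 3, so this check does not settle whether the numbers pair libraries. With the replicate number as a block the calls were 3 (ANXA4 shRNA), 0 (B4GALNT1 gRNA), 3 (NT gRNA against NT shRNA) and 4 (arrays), as without it, and the EIF2AK1 and PPP1R15A differences stayed at -0.97 and 0.44 log2. EIF2AK3 had the fewest reads, 457 to 723 a library, and EIF2AK2, with 612 to 1395, had the largest SE (0.103 log2); the part of depth in this was not tested.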

Other observations

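EIF2B1 and EIF2B2, like PPP1R15B, were lowest in the NT shRNA libraries, a pattern picked after the values were seen and therefore without a test. EIF2B2 had 21.7 to 24.1 FPKM there and at least 37.7 FPKM (a B4GALNT1 shRNA library) in the other 6 groups, and EIF2B1 had 21.9 to 23.9 FPKM there and at least 37.4 FPKM elsewhere. EIF2AK4 was instead highest in the NT shRNA libraries, so the sign of any difference against that control differs between genes of this pathway. ATF4 had its lowest level with the ANXA4 shRNA, at 123 to 133 FPKM, and its highest in the arrays, at 306 to 349 FPKM in the libraries labelled ANXA4 array and 300 to 340 FPKM in those labelled NT array.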
